A study of Mus musculus with 5 samples.

Results

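The secretory lineage fate regulators described here are 10 transcription factor genes that set absorptive, goblet or endocrine fate in the gut epithelium, namely Hes1, Atoh1, Gfi1, Spdef, Creb3l4, Neurog3, Neurod1, Insm1, Nkx2-2 and Sox9. The members are all probe sets of the array that the platform annotation pairs with 1 of these symbols alone, which gave 13 of 22626 probe sets tested. Every one of the 10 genes was represented, and Neurog3, Neurod1 and Sox9 had 2 probe sets each. No member was left out for a low value.

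RNA came from whole fetal colon of mouse embryos at E18.5, with 1 array for each of 5 samples. The HNF4 null group held 3 samples (null_59, null_60 and null_426) of the genotype HNF4LoxP/LoxP FoxA3Cre. The control group held 2 samples (CONTROL_406 and CONTROL_421) of the genotype HNF4LoxP/+ FoxA3Cre. Each sample thus carried the Cre transgene and at least 1 floxed allele, so the controls are heterozygous, and no sample without Cre was analysed here. The transgene is named for Foxa3, a gene of the gut endoderm, while muscle, nerve and connective tissue remain in the RNA. The labels do not say which exons lie between the loxP sites, nor whether the samples of a group came from separate litters, so p-values measure only the spread between these samples.

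In the gut crypt, Notch signalling between neighbouring cells decides between the absorptive and the secretory fates. An activated Notch receptor works with the DNA-binding protein RBPJ to switch on Hes1, a repressor that keeps Atoh1 off and leaves the cell absorptive. Cells that escape this signal express Atoh1, which is needed for goblet and endocrine cells alike. Gfi1 and Spdef then favour the goblet fate, and Neurog3 starts the endocrine one, followed by Neurod1, Insm1 and Nkx2-2. Sox9 acts in progenitor cells of the crypt base, and Creb3l4 is a membrane-anchored factor of the endoplasmic reticulum.

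HES proteins and RBPJ act by binding DNA near their target genes, and the start regions of members were searched for 3 motifs on both strands in the 250 bases before each start listed by RefSeq (build GRCm38.p6). These were CACGCG, a site type that HES repressors bind, TGGGAA, the core of RBPJ sites, and CAAAGTC, part of the motif of HNF4. A start region was listed for 7 of the 10 members, with 10 windows in all. The names without one are Hes1, Insm1 and Sox9. CACGCG or its reverse was in 3 of the 10 windows, those of Atoh1, Neurog3 and Neurod1, against 7.62% of 32851 windows of all genes. The Atoh1 window held 3 of them, and 0.225% of all windows held that many or more. TGGGAA was in the Spdef window alone among members (21.6% of all windows), and CAAAGTC in 0 of the 10 (3.84% of all windows). The windows of all genes were not matched to those of the members for base content, so these shares do not measure an excess. Gfi1 and Creb3l4 each had more than 1 of the 10 windows. A match is a run of letters and not a measured binding site. The Atoh1 window is shown whole (chr6:64728875-64729124, plus strand), and the others as stretches around the match, at chr10:62132949-62132994 (Neurog3, plus strand), chr2:79456723-79456768 (Neurod1, minus strand) and chr17:27728952-27728993 (Spdef, minus strand). All are given 5′ to 3′ along the gene, with the match in capitals.
Atoh1: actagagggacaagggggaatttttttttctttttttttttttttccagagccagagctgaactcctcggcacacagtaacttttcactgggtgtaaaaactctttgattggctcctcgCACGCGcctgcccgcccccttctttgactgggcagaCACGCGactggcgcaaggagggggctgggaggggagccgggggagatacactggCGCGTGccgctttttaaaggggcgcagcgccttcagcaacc
Neurog3: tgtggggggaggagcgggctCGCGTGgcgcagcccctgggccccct
Neurod1: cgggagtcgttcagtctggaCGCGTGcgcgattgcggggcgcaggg
Spdef: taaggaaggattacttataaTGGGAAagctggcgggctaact

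The arrays had median deposited intensities from 123.7 to 135.2, and log2 values of pairs of arrays correlated across probe sets at 0.946 to 0.974. CONTROL_421 stood apart in several measures. Its ratio of the 3′ to the 5′ probe set of Gapdh was 1.47 against 0.767 to 0.895 in the other 4 arrays, and its highest correlation with any array was 0.958 against 0.971 to 0.974. It also had the lowest median intensity and the most values below 0 (58 against 21 to 50). Of the 4 probe sets of Hnf4a, 0 passed the threshold, and its brightest, 1427001_s_at, read 649.8, 746 and 723 in null_59, null_60 and null_426, with 945 in CONTROL_406 and 991 in CONTROL_421 (log2 difference -0.35 ± 0.17, SE, limma adjusted p = 0.719). The others differed by -0.55, 0.14 and 0.19. Markers of the labelled tissue were measured in every array, with Cdx1, a hindgut homeobox gene, at 201 to 370 in null and 452 and 635 in control arrays and Hoxb13, a posterior homeobox gene, at 179 to 361 and at 516 and 465. Of 8 genes listed for colon position, each by its brightest probe set, limma called 1 at an adjusted p under 0.05 (0.137% of all genes were called). This was Aqp8, which fell. Aqp8 and Car1 on this list are also counted among the absorptive products below, so the Aqp8 call is the same in both places. An unadjusted p under 0.05 was found for 5, all lower (4.28% of all genes). For 6 of the 8 the null arrays lay below both controls (11.8% of all genes). Their median log2 difference was -0.52, with summed intensities of 1127 to 1511 in null and 2216 to 2512 in control arrays, and the part of this shift in the members' values was not tested. In whole colon, fewer cells of a type and less RNA per cell cannot be told apart.

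None of the fate regulators passed the test between HNF4 null and control colons. The test was limma's on log2(intensity + 16) after quantile normalisation, with an adjusted p under 0.05 over all probe sets as the threshold. It called 0 of 13 member probe sets, and 28 of 22626 probe sets in all (0.124%). The adjusted p of the members lay between 0.616 and 0.961. At an unadjusted p under 0.05 limma called 1 of the 13 (7.69%), Spdef, which was higher, where 2.82% of all probe sets were higher and 4.33% lower at that level. The median log2 difference, null minus control, was 0.12 over the 13 and 0.016 over all probe sets. The 95% interval of a member reached between 0.35 and 0.54 to either side of its difference, before any adjustment for the number of probe sets.

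**Figure D1:**
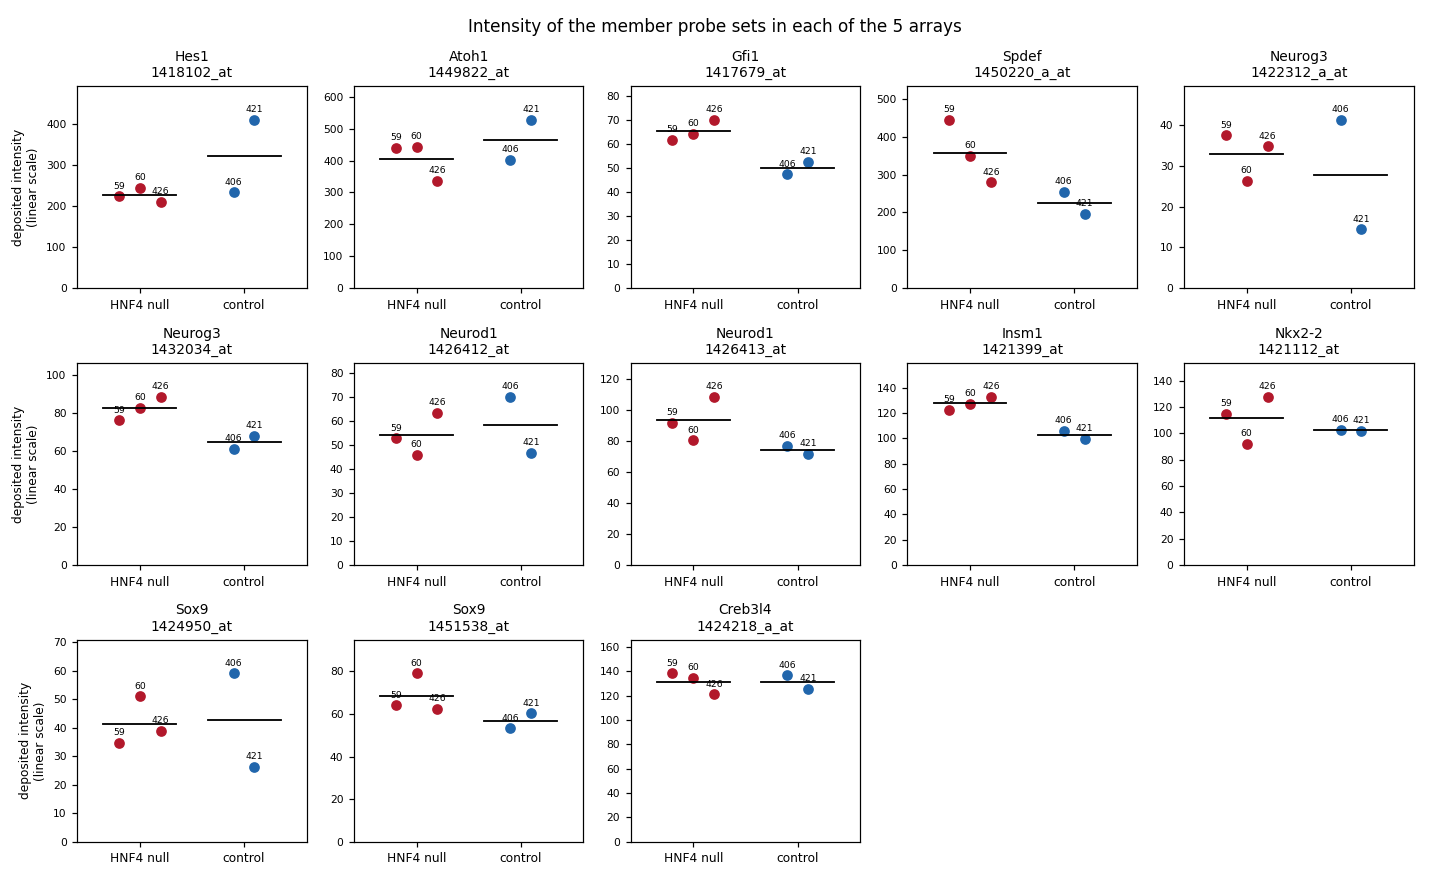
Deposited intensity on a linear scale (vertical axis) of the 13 member probe sets in each array, with HNF4 null samples in red, control samples in blue, sample numbers beside the points and the group mean as a bar. Spdef lay between 280 and 445 in the 3 null arrays and at 254 and 196 in the controls, while the highest Hes1 value, 409, was that of CONTROL_421 and the remaining 4 lay between 210.1 and 244.

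**Figure D2:**
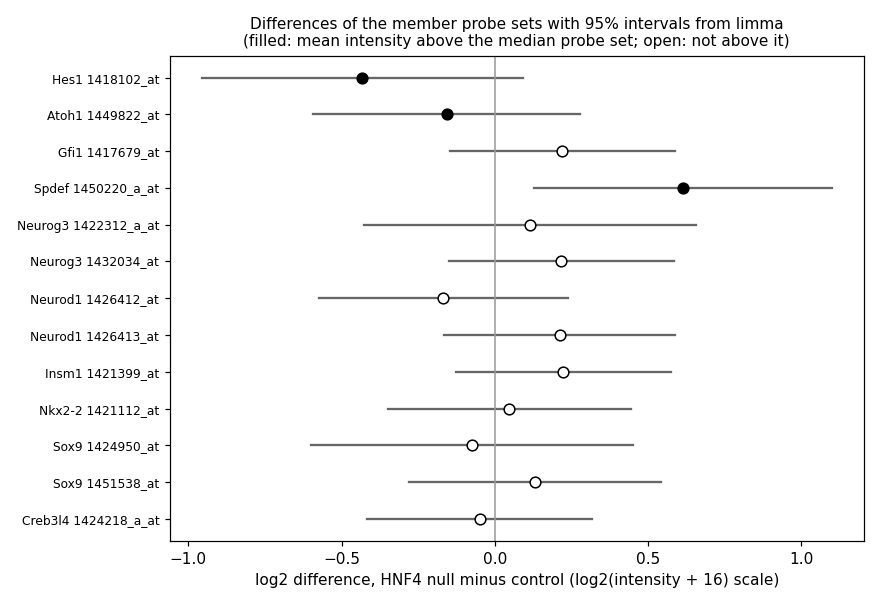
Log2 difference between HNF4 null and control (horizontal axis) of each member probe set with its 95% interval from limma. Filled points have a mean intensity above that of the median probe set and open points do not. The interval of Spdef (0.13 to 1.10) is the one that does not reach 0.

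Hes1, the Notch-induced repressor that holds cells in the absorptive fate, was measured by 1418102_at. It read 224, 244 and 210.1 in null_59, null_60 and null_426, with 233 in CONTROL_406 and 409 in CONTROL_421. CONTROL_406 lay among the null arrays, and only CONTROL_421 was high. The log2 difference was -0.43 ± 0.23 (SE), with a 95% interval from -0.96 to 0.09 and an adjusted p of 0.748 in limma. The controls were 0.80 apart on the log2 scale and the null arrays spanned 0.18. Without CONTROL_421 the difference was -0.032, and without CONTROL_406 it was -0.83 (adjusted p = 0.193). CONTROL_421 is the array with the high Gapdh ratio, and the part of RNA quality in its Hes1 value was not tested.

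Atoh1, the basic helix-loop-helix factor required for secretory cells, was the brightest of the members' probe sets relative to all probe sets, at the percentile 88.1. Its intensities were 439, 443 and 336 in null_59, null_60 and null_426, with 403 in CONTROL_406 and 528 in CONTROL_421. CONTROL_406 fell between null arrays, so the groups overlapped. The difference was -0.16 ± 0.19 (SE, adjusted p = 0.873), that is a fold of 0.897 with a 95% interval from 0.663 to 1.21. It turned to 0.046 without CONTROL_421 and was -0.36 without CONTROL_406.

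Spdef, an ETS-family factor that drives goblet cell maturation, had the largest difference among the members. Probe set 1450220_a_at read 445, 349 and 280 in null_59, null_60 and null_426, with 254 in CONTROL_406 and 196 in CONTROL_421. Each null array lay above both controls, although null_426 was only slightly above CONTROL_406. The deposited mean was 358 ± 82.8 (SD) over the 3 null arrays, while that of the 2 controls was 225 ± 40.7 (SD). The fold was 1.53 (95% interval 1.09 to 2.14) and the log2 difference 0.61 ± 0.22 (SE), with an unadjusted p of 0.0186 and an adjusted p of 0.616 in limma. An exact permutation test over the 10 splits of the arrays gave a two-sided p of 0.2, where the smallest p it allows is 0.1. The unadjusted p was 0.0762 without null_59 and 0.117 without CONTROL_421, with differences of 0.44 and 0.47. The difference kept its sign in all 14 alternatives run, with adjusted p from 0.254 to 0.984.

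Gfi1, a zinc-finger repressor downstream of Atoh1, was dim, at 61.7, 64.2 and 70.0 in null_59, null_60 and null_426 against 47.4 and 52.6 in CONTROL_406 and CONTROL_421. The null arrays lay above both controls, with a difference of 0.22 ± 0.16 (SE, adjusted p = 0.799). Without CONTROL_406 the difference was 0.11. Creb3l4 read 138, 135 and 121 in the null arrays and 137 and 126 in the controls, in the same order of samples. The groups overlapped throughout, and the difference was -0.050 ± 0.16 (SE, adjusted p = 0.958), which is a fold between 0.749 and 1.25 by its 95% interval.

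Of the endocrine factors, none had a probe set with a mean above that of the median probe set (132), and no detection calls were used here, so a low reading may lie near background. Neurog3, which starts the endocrine lineage, read 37.4, 26.4 and 34.8 in the null arrays and 41.3 and 14.4 in the controls by 1422312_a_at. Here CONTROL_406 and CONTROL_421 were the highest and the lowest array, and the difference of 0.12 ± 0.24 (SE, adjusted p = 0.926) turned to -0.27 without CONTROL_421 and was 0.51 without CONTROL_406. By its second probe set, 1432034_at, Neurog3 read 75.9, 82.5 and 88.4 in the null arrays and 61.2 and 67.7 in the controls. These groups did not overlap, and the difference was 0.22 ± 0.16 (SE, adjusted p = 0.801), or 0.11 without CONTROL_406.

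Neurod1, which acts after Neurog3 in endocrine precursors, gave different signs by its probe sets. It read 91.9, 80.4 and 108.6 in null_59, null_60 and null_426, with 76.7 in CONTROL_406 and 71.7 in CONTROL_421 by 1426413_at, with all null arrays above the controls (0.21 ± 0.17, SE, adjusted p = 0.804). By the dimmer 1426412_at it read 52.7, 45.8 and 63.2 against 70.0 and 46.6, and the groups overlapped. That difference was -0.17 ± 0.18 (SE, adjusted p = 0.854), and 0.0049 without CONTROL_406.

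Insm1, a zinc-finger factor of endocrine and other neuroendocrine cells, was measured by 1421399_at. Its intensities were 123, 127 and 133 in null_59, null_60 and null_426, with 106 in CONTROL_406 and 99.6 in CONTROL_421. All null arrays thus read higher than the controls, by 0.22 ± 0.16 (SE, adjusted p = 0.789) on the log2 scale. With any 1 array left out the difference was from 0.22 to 0.24. Nkx2-2, a homeobox factor of endocrine differentiation, read 115, 92.2 and 128 in the null arrays and 103 and 102 in the controls. Null arrays lay on both sides of the controls, with a difference of 0.048 ± 0.18 (SE, adjusted p = 0.961).

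Sox9, the high-mobility-group factor of crypt progenitors, was also read by a pair of dim probe sets. Probe set 1451538_at gave 64.1, 79.0 and 62.3 in null_59, null_60 and null_426, with 53.2 in CONTROL_406 and 60.3 in CONTROL_421. The null arrays were above the controls as deposited but not after normalisation, where null_59 and null_426 lay below CONTROL_421 (difference 0.13 ± 0.18, SE, adjusted p = 0.888). With 1 array left out that difference was from 0.0095 to 0.25. Probe set 1424950_at gave 34.6, 51.0 and 38.9 against 59.1 and 26.3. Again the controls were the highest and the lowest array, and the difference was -0.075 ± 0.23 (SE, adjusted p = 0.956).

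The null arrays lay above both controls in 5 of the 13 member probe sets (38.5%) and below both in 0. Over all probe sets these shares were 12.0% above and 11.6% below. The 5 were Gfi1, Spdef, Insm1 and 1 probe set each of Neurog3 and Neurod1. Of these, 4 were not above the median probe set in mean intensity, and among all such probe sets 11.5% had the null arrays above. In the table as deposited the count was 6 (46.2%) against 14.6% of all probe sets. By gene, each by its brightest probe set after normalisation, the count was 5 of 10, against 12.6% of all genes. The higher share in members is a description that was not tested, and no member passed. Probe sets of 1 gene share their transcript, but the 5 named above are of different genes. The array left out decided the sign of the difference for 6 of the 13 probe sets, those of Atoh1, Nkx2-2 and Creb3l4 and 1 each of Neurog3, Neurod1 and Sox9.

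**Figure D3:**
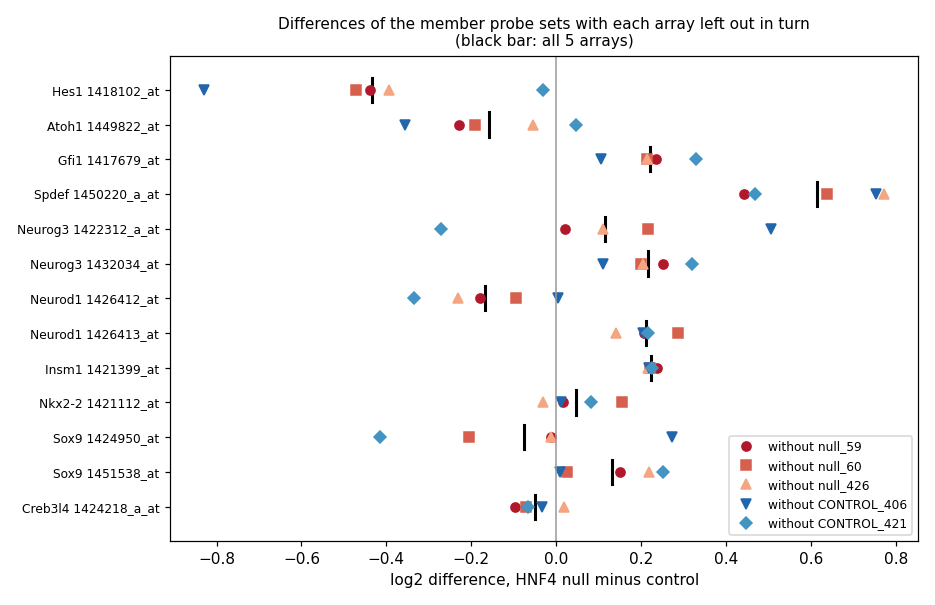
Log2 difference between HNF4 null and control (horizontal axis) of each member probe set with 1 array left out at a time (coloured symbols) and with all 5 (black bar). Hes1 moved from -0.43 to -0.032 without CONTROL_421 and to -0.83 without CONTROL_406, while Insm1 stayed between 0.22 and 0.24.

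For the member most variable over the 5 arrays among those above the median probe set (Spdef), and for Atoh1 and Hes1, the most similar probe sets were sought among 10257 probe sets of 1 symbol above the median. Likeness was the root mean square difference of mean-centred log2 values over the 5 arrays. Closest to Spdef were Pdrg1 (0.0905), Ndrg1 (0.105) and Cavin1 (0.108). Closest to Atoh1 were Ankrd22 (0.0189), Oxct1 (0.0240) and Maml1 (0.0277), and closest to Hes1 were Bri3 (0.0447), Mtres1 (0.0571) and Ctage5 (0.0598). These genes were picked for their values in the same 5 arrays, so any feature of the profile that they share with the member is set by the choice.

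Genes that act around the members in the Notch pathway likewise gave no call. Each gene is given here by its brightest probe set, by which 0.137% of 12393 genes were called with limma. Without adjustment, p was under 0.05 with a higher level in 2.62% of genes and with a lower one in 4.28%. Of 54 listed Notch pathway genes 48 were measured, and 0 of them passed limma's threshold, nor did any have an unadjusted p under 0.05. Their median log2 difference was -0.017, against 0.021 for all genes. The null arrays lay above both controls for 5 of the 48 and below both for 5, where the shares over all genes were 12.6% and 11.8%. Among 6 ligand genes the smallest p were those of Dll3 (0.19) and Dlk1, a ligand-like protein (0.24), both as log2 differences. All 4 receptor genes were above 0 (as were 6637 of 12393 genes), led by Notch3 (0.21) and Notch1 (0.21). The Notch1 difference was 0.11 without null_60 and 0.34 without null_426. Among 18 genes of receptor processing and modulation, the γ-secretase subunit gene Psenen differed by 0.25 and the ubiquitin ligase gene Dtx1 by -0.23. Among 11 nuclear partners the corepressor gene Tle4 differed by -0.34 and the coactivator gene Maml1 by -0.20. The value of Maml1 moved with the array left out, at -0.011 without CONTROL_421, -0.39 without CONTROL_406 and -0.091 without null_426. That of Dlk1 was 0.085 without CONTROL_406, 0.11 without null_59, 0.38 without null_426 and 0.40 without CONTROL_421.

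Further genes, listed together here as candidate Notch targets, were read beside Hes1. Those measured were Hes5, Hes6, Hes7, Hey1, Hey2, Heyl, Nrarp, Id1 and Id3. Being on the list does not show that Notch switches a gene on, and this holds for Hes6, Id1 and Id3 too. Whether each of them responds to Notch in this tissue was not tested. Of 9 measured, 6 were below 0 (as were 5756 of 12393 genes), and 3 had all null arrays below both controls (11.8% of all genes). Nrarp, a feedback inhibitor of Notch, read 474, 418 and 493 in null_59, null_60 and null_426, with 567 in CONTROL_406 and 559 in CONTROL_421 (log2 difference -0.23 ± 0.17, SE, adjusted p = 0.799). Its controls were close together, in contrast to those of Hes1. Hes6, a relative of Hes1, read 339, 363 and 341 in the null arrays and 364 and 501 in the controls, a difference of -0.26 ± 0.18 (SE, adjusted p = 0.793). As for Hes1, CONTROL_421 was the array that stood apart, and without it the difference was -0.018.

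Further goblet factors did not pass either (0 of 11 by limma), and 2 had an unadjusted p under 0.05, both lower (4.28% of all genes). Klf4, a zinc-finger factor of goblet cell differentiation, read 581, 615 and 334 in null_59, null_60 and null_426, with 717 in CONTROL_406 and 907 in CONTROL_421 (-0.65 ± 0.25, SE, adjusted p = 0.653). The forkhead gene Foxa2 differed by -0.55 ± 0.21 (SE, adjusted p = 0.652). In these 2 of the 11, all null arrays lay below both controls (11.8% of all genes), on the other side from Spdef. Without CONTROL_421 the difference was -0.46 for Klf4 and -0.29 for Foxa2, with unadjusted p of 0.171 and 0.254 in limma. The unadjusted p was also above 0.05 without null_426 (0.0689 and 0.0733), where Klf4 differed by -0.41, and for Foxa2 without null_59 (0.0738). Of 14 further endocrine factors, with a median of 0.080, 0 passed by limma. At an unadjusted p under 0.05 in limma, 1 was higher and 1 lower (2.62% and 4.28% of all genes). These were Runx1t1 (0.49) and Nkx6-2 (-0.70), both from dim probe sets. Both had an unadjusted p above 0.05 without CONTROL_421, where they differed by 0.31 and -0.41. For Runx1t1 limma's unadjusted p was also above 0.05 without null_60 (0.0997), with array weights (0.0616) and with a pseudocount of 64 (0.0573).

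Some genes of differentiated cells gave calls. By limma these were 1 of 15 measured goblet products, 0 of 22 endocrine products and 3 of 15 absorptive products, against 0.137% of all genes. Of 20 listed goblet products 15 were measured, and the mucin gene Muc2 was among those with no probe set of its symbol alone. Of the 15, limma called 1, Zg16, a lectin-like secreted protein, which fell. It read 131, 217 and 279 in null_59, null_60 and null_426 against 1261 and 1548 in CONTROL_406 and CONTROL_421. Its log2 difference was -2.66 ± 0.28 (SE, adjusted p = 0.0103). By this probe set, its brightest, Zg16 did not pass without null_60 (adjusted p = 0.0774) or with a pseudocount of 1 (0.0974). Its other probe sets also passed in the reported setting, 1428358_at at -1.99 (adjusted p = 0.00809) and 1434137_x_at at -2.88 (0.0103). Neither passed without null_60 (0.0674 and 0.0774). With a pseudocount of 1 the former passed (0.0471) and the latter did not (0.113). Without CONTROL_421 the difference was -2.48 by the brightest probe set, -2.025 by 1428358_at and -2.54 by 1434137_x_at. With no adjustment, limma's p was under 0.05 for 4 lower goblet products and 1 higher one (4.28% and 2.62% of all genes). Among the lower ones Sval1 was at -1.20 (adjusted p = 0.171), and the median of the list was -0.063. Of 22 endocrine products limma called 0, and the 4 with an unadjusted p under 0.05 were all lower (4.28% of all genes). The neurotensin gene Nts was at -1.01 and the amine-synthesis gene Ddc at -0.66, with a median of -0.12 over the list.

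Absorptive products had a median of -0.68 over 15 measured genes. Aqp8, Cdhr5 and Muc3, a water channel, a microvillar protocadherin and a membrane mucin, fell (-2.50, -1.90 and -2.07, adjusted p 0.00654, 0.0103 and 0.0432). An unadjusted p under 0.05 was found for 10 of the 15, all with lower levels (4.28% of all genes). Muc3 and Cdhr5 did not pass without null_60 (adjusted p = 0.209 and 0.0674) or without CONTROL_421 (0.251 and 0.0545), nor with a pseudocount of 1 (0.222 and 0.0894). Muc3 also missed the threshold without null_426 (0.185), with a pseudocount of 64 (0.0651) and with array weights (0.0777). With a floor of 16 and no pseudocount, Zg16, Cdhr5, Muc3 and Aqp8 all missed it, and for Aqp8 this was the one such setting (adjusted p = 0.456). Whether products differed more than regulators was not tested, and the lists were chosen with earlier results of these data known.

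**Figure D4:**
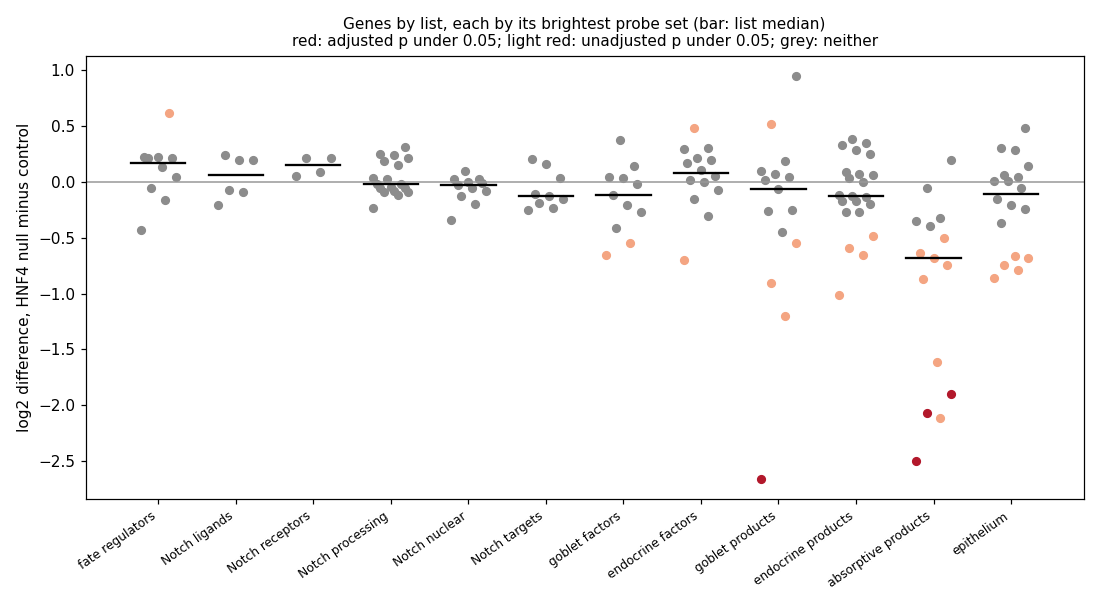
Log2 difference between HNF4 null and control (vertical axis) of each gene by its brightest probe set, in 12 lists with the list median as a bar. Dark red points passed an adjusted p of 0.05, light red ones an unadjusted p of 0.05. The fate regulators lay between -0.43 and 0.61, while absorptive products reached -2.50.

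Markers of the epithelium were read gene by gene and as a sum. Of 18 such genes limma called 0, and the 5 with an unadjusted p under 0.05 were all lower (4.28% of all genes). Among them were Epcam, an adhesion molecule of epithelia, at -0.66 and Vil1, villin of the brush border, at -0.74. Vil1 is also on the list of absorptive products, and Cdx1 and Cdx2 are also on that of colon position. The list's median was -0.10, and 8 of the 18 were above 0, with Krt18 at 0.29. Krt8, its partner in simple epithelial keratin filaments, differed by -0.15 and the cadherin gene Cdh1 by -0.24. The null arrays lay below both controls for 8 genes and above both for 1, against 11.8% and 12.6% of all genes. The summed deposited intensity of the 18 genes was 20825 to 25911 in null and 25988 to 27692 in control arrays. These ranges did not overlap but nearly met, and bright genes weigh most in such a sum. The part of epithelial content in the members' values was not tested. Markers of enteric neurons and glia, cells that can share endocrine factors, summed to 3708 to 4460 in null and 3927 to 4226 in control arrays, and 0 of 18 had an unadjusted p under 0.05 in limma. For the pancreas, which also expresses Neurog3, Neurod1 and Nkx2-2, the sums over 9 genes were 2000.3 to 2818 and 2353 to 2550.0. The acinar factor gene Ptf1a, between 25.9 and 36.9 in all arrays, made up a small part of these sums. Of these 9 genes limma called 0, and 1 had an unadjusted p under 0.05 (Cela1, lower, as were 4.28% of all genes). The null arrays lay below both controls for 2 and above both for 1, against 11.8% and 12.6% of all genes. The sums of both lists overlapped between the groups.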

How the data were processed

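Mouse fetal colon RNA was measured on 5 arrays, 3 HNF4 null and 2 control, grouped by sample title. The deposited table gives 1 linear intensity per probe set and array. Per the labels' protocols, Qiagen RNeasy mini columns were used for total RNA, which was biotin-labelled and handled by the Affymetrix procedure. The summarising software and any scaling are not given in the sources used here. Values below 0 occur (196 in the probe sets tested).

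The table held 22690 probe sets, of which 64 array controls were left out. A platform annotation of 2016 gave 1 symbol to 20380 probe sets, several to 691 and none to 1555. Values below 0 were set to 0, taken as log2(intensity + 16) and quantile normalised, since array medians spread over 0.11 on that scale. A fold on this scale understates changes of dim genes. Groups were compared with limma 3.58.1 in R 4.3.3 (lmFit, eBayes, two-sided, 9.33 total degrees of freedom), with Benjamini-Hochberg adjustment over 22626 probe sets, with 0.05 as the threshold. The script was tested on simulated data.

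Named genes were all member probe sets, the 2 genes of smallest p in each pathway list and any gene there past the threshold, with others named as tissue or cell markers. Members and lists were chosen with earlier results of these data known. Alternatives covered scaling, pseudocount, floor, filter, variance prior, array weights and each array left out. Sequences are from RefSeq tables of build GRCm38.p6.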

Additional observations from a re-analysis of the deposited data

How the results depend on the processing

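With all 14 alternatives run, 0 member probe sets passed limma's threshold. Their count at an unadjusted p under 0.05, 1 in the reported setting, was 2 with a floor of 16 and no pseudocount and 0 to 2 with 1 array left out (0 without null_59 or CONTROL_421, 2 without CONTROL_406). The count over all probe sets was 14 with a pseudocount of 1, 45 with array weights, 0 with the floor (1661 at an unadjusted p under 0.05), and 8 to 104 with 1 array left out (8 without null_60, 18 without CONTROL_421, 104 without CONTROL_406). At an unadjusted p under 0.05 it was 886 after removal of dim probe sets, where fewer were tested, and 2493 with array weights. Signs turned for Creb3l4 (0.0013 as deposited, 0.0076 with array weights, -0.096 to 0.018 with 1 array left out) and for Sox9 by 1424950_at (0.019 as deposited, -0.41 to 0.27 with 1 array left out). With 1 array left out, the range was -0.030 to 0.16 for Nkx2-2, -0.27 to 0.51 for Neurog3 by 1422312_a_at, -0.34 to 0.0049 for Neurod1 by 1426412_at and -0.36 to 0.046 for Atoh1. The cause of these moves was not tested. A lone control is taken to have the spread of the null group. The filter on dim probe sets left 3 member probe sets, those of Hes1, Atoh1 and Spdef.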

Other observations

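Retnlb, which encodes a goblet cell peptide of the resistin family and was chosen after its values were seen, read -12.5 in null_59 and -13.8 in CONTROL_421, against 2517, 2067 and 3320 in null_60, null_426 and CONTROL_406. Its low arrays came from both groups. Atoh1 and Spdef did not divide the arrays in this way, with Spdef highest in null_59 and lowest in CONTROL_421.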
